A study of Arabidopsis thaliana with 25 samples.

Results

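Small nucleolar RNA (snoRNA) genes of Arabidopsis thaliana were examined for summits of 4 transcript elongation factors in 8 deposited lists of ChIP-seq peak summits. A summit was counted as a member when it lay within 250 bp of a gene that the gene table annotates as snoRNA. The members were 358 of the 30216 summits on chromosomes 1 to 5, or 1.18%, and they stood at 258 distinct bases. The table holds 287 snoRNA genes with a median length of 92 bp (range 19 to 702 bp), none of which overlaps another. Genes no more than 1000 bp apart were joined into 142 loci, of which 71 hold 1 snoRNA gene and 71 are clusters of 2 or more. At least 1 member stood at 83 of the 142 loci and at 178 of the 287 genes.

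The study precipitated SPT5, ELF7, SSRP1 and SPT16 from Col-0 seedlings with 4 ChIP libraries each, and RNA polymerase II (RNAPII) phosphorylated at serine 2 (S2P) or serine 5 (S5P) of its carboxy-terminal domain with 2 libraries each, beside 5 input libraries. All seedlings were grown with 16 h of light at 21 °C and darkness at 18 °C. The protocol under every sample also describes 10 min at 44 °C, but no label calls a sample heated, so no heated group was formed. Each list sets 1 factor over 1 RNAPII form, for example SPT5 over S2P. The factor was read as the precipitate and the RNAPII form as its control, which the files do not state, so a summit marks a place where the factor exceeded that RNAPII form. The score of a summit is the authors' −log10 of its q-value, with 2.0001 as the lowest score, and it depends on sequencing depth, which is unknown. The lists carry no column per library, and so there is no replicate error and no test between classes or lists. Shares are given with exact Clopper-Pearson 95% intervals, which cover counting error only. Genes of a cluster can share a summit but are counted as separate, so intervals over snoRNA genes are too narrow.

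The snoRNAs are short nucleolar RNAs that guide the chemical modification of ribosomal and spliceosomal RNA. Box C/D snoRNAs work with the methyltransferase fibrillarin in 2′-O-methylation, and box H/ACA snoRNAs work with dyskerin in the conversion of uridine to pseudouridine. Plant snoRNA genes often lie in clusters that are transcribed as 1 precursor and then cut apart, and others lie within protein-coding genes. Most are transcribed by RNAPII, whereas plant U3 is transcribed by RNA polymerase III, which also makes tRNA. SPT5 travels with RNAPII as part of the SPT4-SPT5 complex, ELF7 belongs to the PAF1 complex, and FACT, a histone chaperone, consists of SSRP1 and SPT16.

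A larger share of snoRNA genes than of the other short RNA genes carried a summit, and outside the ELF7 lists it was also larger than that of genes in general. Any list marked 62.0% of snoRNA genes (56.1 to 67.7), against 26.6% of the 37612 other nuclear genes measured in the same way. Among tRNA genes the share was 8.64% (6.56 to 11.1, 54 of 625), and among snRNA genes, whose RNAs belong to the spliceosome, 3.66% (0.761 to 10.3, 3 of 82). Those classes are close to snoRNA genes in length, with medians of 73 bp for tRNA and 153 bp for snRNA genes, while protein-coding genes have a median of 2078 bp and so a wider target. The 250 bp windows around snoRNA genes covered 113.451 kb, or 0.0952% of the chromosomes up to the last annotated gene.

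The SPT5 list over S2P had the highest ratio of summit density at snoRNA genes to that elsewhere among the 8 lists. It marked 67 snoRNA genes, 23.3% (18.6 to 28.7), against 0.822% of other genes and 0 of 625 tRNA genes (0 to 0.588%). The list is short, and 30 of its 298 summits, or 10.1% (6.90 to 14.1), were members, which stood at 28 loci. Of its 66 summits that lay outside protein-coding genes, 26 were members, 39.4% (27.6 to 52.2). Its density was 0.264 summits per kb of snoRNA window and 0.00225 per kb elsewhere, a ratio of 117. SPT5 over S5P marked nearly the same number of snoRNA genes, 62 or 21.6% (17.0 to 26.8), against 11.1% of other genes. That list holds 2916 summits, of which 35 were members, 1.20% (0.837 to 1.67), with a density ratio of 12.7 between snoRNA windows and elsewhere.

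Both FACT subunits marked a larger share of snoRNA genes than SPT5 or ELF7 did over the same RNAPII form. SSRP1 had summits at 131 snoRNA genes over S2P, 45.6% (39.8 to 51.6), against 13.9% of other genes, from 72 summits at 65 loci. Over S5P it had them at 132 genes, 46.0% (40.1 to 51.9), against 10.4% of other genes. SPT16 marked 131 genes over S2P, 45.6% against 15.4% of other genes, and 121 genes over S5P, 42.2% against 17.3%. The density ratios of the 4 FACT lists lay between 9.74 and 17.5. Member scores of FACT were above those of the whole lists, with medians of 8.56 for members and 6.67 for the list in SSRP1 over S2P, and 6.43 and 4.73 in SPT16 over S5P. In the SPT5 lists the members were below, with medians of 3.32 against 3.62 over S2P and 3.90 against 4.68 over S5P.

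ELF7 was the exception when set against other genes, since its share of snoRNA genes was near or under theirs. Those genes have a median length of 1809 bp, against 92 bp for snoRNA genes, and so a wider target. Over S2P it marked 20 snoRNA genes, 6.97% (4.31 to 10.6), against 6.35% of other genes. Over S5P it marked 2 snoRNA genes, 0.697% (0.0845 to 2.50), against 1.51%. Among tRNA genes its shares were 0.48% (0.0991 to 1.40) over S2P and 0.16% (0.00405 to 0.888) over S5P. The S5P interval overlaps that of snoRNA genes. ELF7 summits were denser in snoRNA windows than elsewhere, with ratios of 5.10 over S2P and 3.04 over S5P. Both ratios were below those of the SPT5 and FACT lists. Outside protein-coding genes, 4 of 39 ELF7 summits over S2P and 0 of 12 over S5P were members. Its 13 member summits over S2P had a median score of 3.12, against 4.33 for its list.

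**Figure D1:**
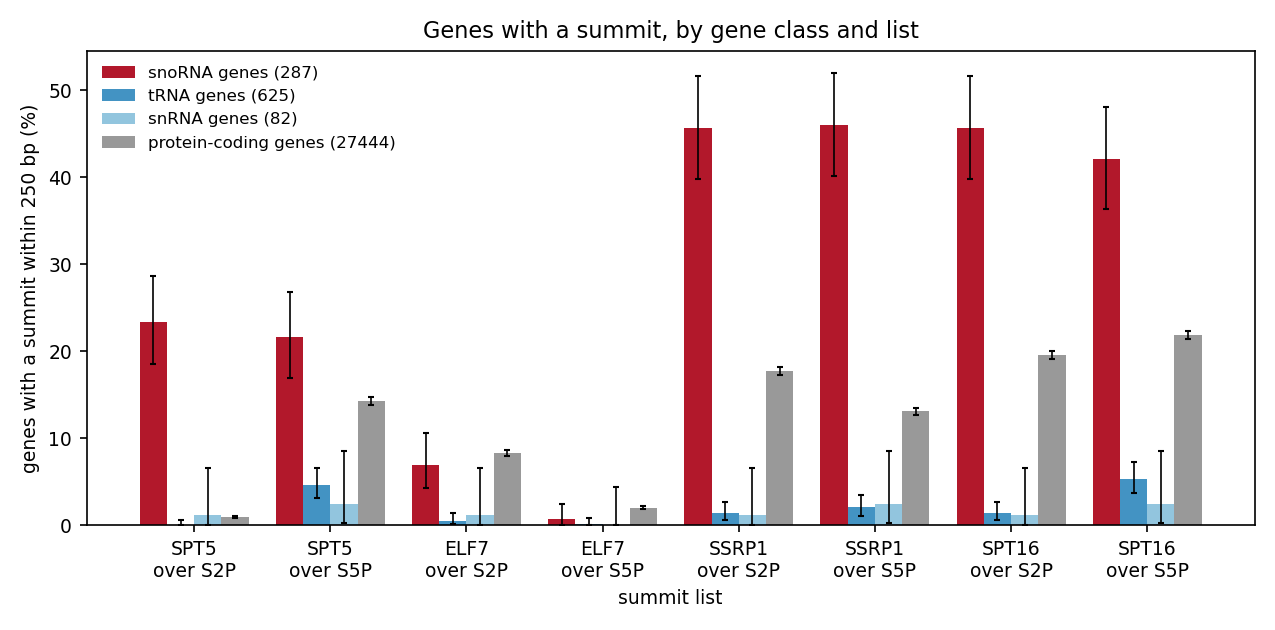
Share of genes with a summit within 250 bp (percent, vertical axis) in each of the 8 summit lists (horizontal axis), for snoRNA, tRNA, snRNA and protein-coding genes; error bars are exact 95% intervals. The snoRNA bars stand at 21.6% or higher in the SPT5 and FACT lists, while no tRNA bar exceeds 5.28%.

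Most marked loci were found in several lists. Of the 83 marked loci, 4 were in 1 list, 16 in 2, 7 in 3, 14 in 4, 28 in 5, 12 in 6 and 2 in 7, and no locus was in all 8. A FACT summit stood at 80 of the 83, an SPT5 summit at 48 and an ELF7 summit at 13. SPT5 stood without FACT at 3 loci and ELF7 without FACT at 1. The FACT lists are the longest, with 4199 to 7394 summits each, against 298 and 2916 for SPT5 and 2687 and 693 for ELF7. The same counts at other marked genes were not taken, so these counts have no base beside them. The 2 lists of a factor are read as sharing its libraries, so a locus in both does not count as found independently. For SPT5, 14 loci were in both lists, 14 over S2P only and 20 over S5P only. For SSRP1 the counts were 59, 6 and 7, and for SPT16 58, 7 and 8.

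A single snoRNA gene within a protein-coding gene had the highest member score in both SSRP1 and both ELF7 lists. This gene, AT3G02205, inside AT3G09440 on chromosome 3, scored 32.02 over S2P and 24.4 over S5P for SSRP1, at TAIR10 positions 2905329 and 2905328, and these ranked 44 and 27 in their lists. SPT16 scored 16.8 and 12.2 there, both at position 2905352. ELF7 scored 12.1 over S2P and 6.19 over S5P at position 2904939, the highest ELF7 member scores, 231 bp from the snoRNA gene. SPT5 had no member at this locus in either list. The other locus with both ELF7 lists was the pair AT1G09083 and AT1G09087 inside RPL34, which encodes a protein of the large ribosomal subunit. It was in 7 lists, with SSRP1 scores of 10.5 and 12.2, SPT16 scores of 5.16 and 5.37, ELF7 scores of 2.63 and 3.91, and 2.37 for SPT5 over S5P. Only SPT5 over S2P lacked a summit at RPL34, and the summits there spread over 702 bp.

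Outside protein-coding genes, the pair AT1G05907 and AT1G05917 on chromosome 1 led the SPT5 list over S2P among the members. SPT5 scored 8.68 there at position 8756404, rank 10 of the 298 summits. SPT16 over S2P scored 22.6 at 8756376 and SSRP1 over S2P 20.7 at 8756347, and the S5P scores were 8.01 and 7.53 at the same bases. No SPT5 summit over S5P lay in its windows. The 3 genes from AT3G24612 to AT3G24615 on chromosome 3 carried SSRP1 at 23.3 and SPT16 at 16.0 over S2P, with 10.4 and 4.48 over S5P, SPT5 at 5.39 over S2P and ELF7 at 3.92 over S2P. At AT1G19373 to AT1G19376, which lacked SPT5 and ELF7, SPT16 over S5P reached its highest member score, 17.5, and SPT16 over S2P 14.5, with SSRP1 at 13.2 over S2P and 11.3 over S5P. The highest SPT5 member score over S5P, 9.33, was at AT5G09495 to AT5G09515 on chromosome 5, position 26349623, where SSRP1 over S5P scored 13.0 and SPT16 over S5P 12.8. That locus lies outside coding genes only in part, since AT5G09495 is inside AT5G65860.

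The 4-gene locus AT3G21805 to AT3G04175 had all its summits within 69 bp. There SPT5 scored 6.62 over S2P and 6.35 over S5P at the same base, 7682539. SSRP1 scored 10.9 and 14.7 at 7682584, and SPT16 6.64 and 9.34 at 7682608. The single gene AT3G04985 had SPT5 at 6.60 and 3.78, SSRP1 at 15.4 and 8.05, and SPT16 at 12.2 in both lists. The single gene AT5G06305 had SPT5 at 3.36 and 4.89, SSRP1 at 14.9 and 12.1, and SPT16 at 9.15 and 5.30. At AT4G07075, also single, SSRP1 scored 14.8 and 15.2 and SPT16 13.5 and 9.81, with ELF7 at 4.55 over S2P and no SPT5. AT1G07393 carried FACT alone, with SSRP1 at 10.8 and 14.5 and SPT16 at 8.15 and 11.3. At AT1G08937, inside AT1G67430, SSRP1 scored 14.5 and 6.69, SPT16 10.1 and 2.13, and SPT5 2.93 over S2P.

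**Figure D2:**
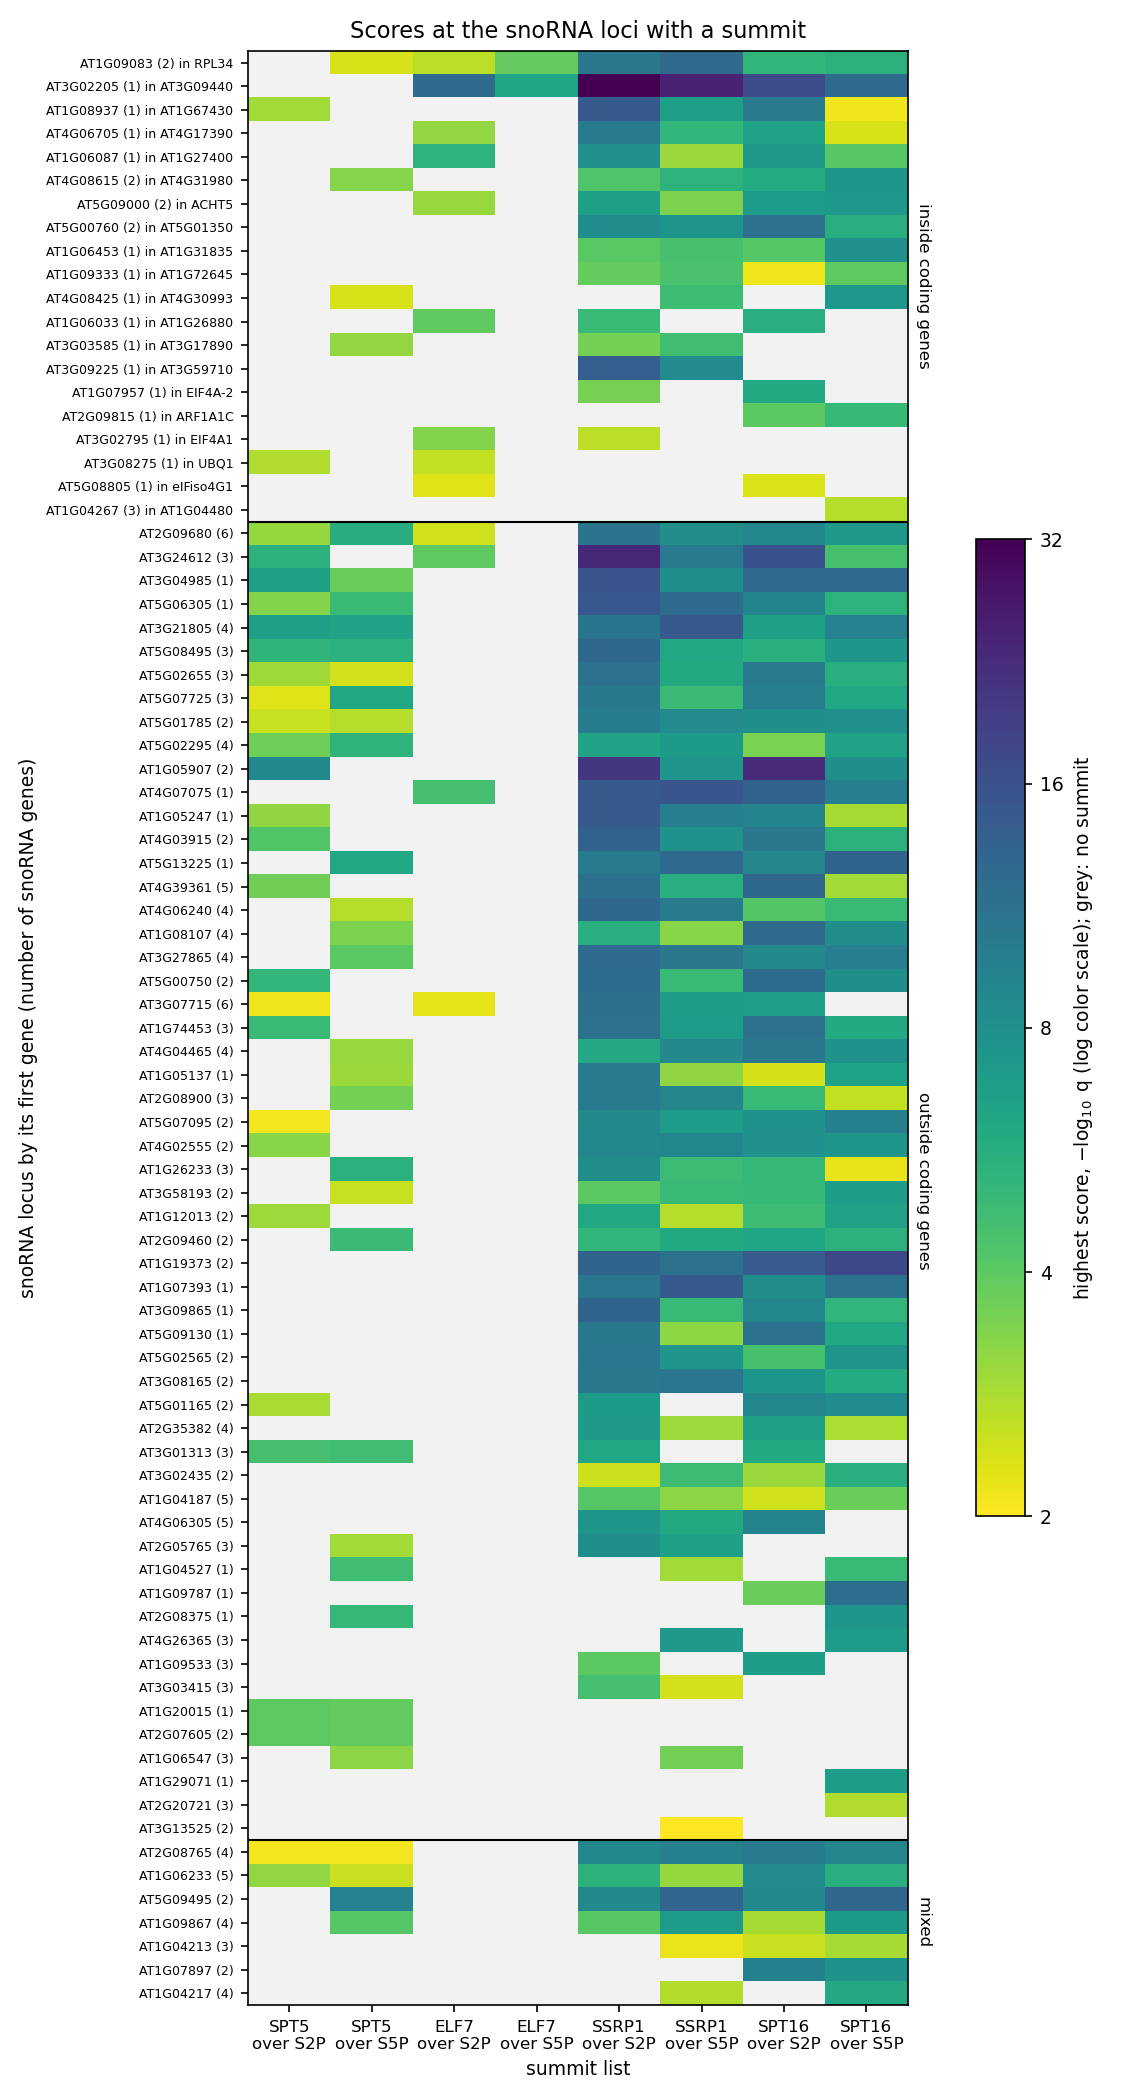
Highest score (−log10 q, logarithmic color scale) at each of the 83 snoRNA loci with a summit (rows, named by their first gene, with the number of snoRNA genes in brackets) in the 8 lists (columns); grey cells have no summit, and colors compare loci within a column only. The 4 FACT columns are filled at most loci, SPT5 over S2P is filled at 2 loci inside, 24 outside and 2 mixed, and ELF7 over S2P at 9 inside and 4 outside.

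Of the largest clusters, that of 6 genes from AT2G09680 to AT2G09705 was in 7 lists, all but ELF7 over S5P, with 5 of its 6 genes marked. Its scores were 3.11 over S2P and 5.71 over S5P for SPT5, 2.43 over S2P for ELF7, 10.96 and 8.13 for SSRP1, and 8.87 and 7.25 for SPT16. The other 6-gene cluster, AT3G07715 to AT3G47348, was in 5 lists and lacked SPT5 over S5P and SPT16 over S5P. Its scores over S2P were 2.15 for SPT5, 2.21 for ELF7, 11.5 for SSRP1 and 6.70 for SPT16. Among 5-gene clusters, AT4G39361 to AT4G39366 had SPT16 at 12.6 over S2P, SSRP1 at 11.4 over S2P and SPT5 at 3.67 over S2P. AT4G06305 to AT4G15258, which includes SNOR37-2, was in 3 lists, with SPT16 at 9.16 over S2P, and SSRP1 at 7.37 and 5.94. AT1G04187 to AT1G04197 was in the 4 FACT lists at scores of 2.44 to 4.14. The remaining 5-gene clusters have shorter spans. AT1G06233 to AT1G06253 was in 6 lists with all 5 genes marked, and scored 3.12 and 2.49 for SPT5, 5.37 and 3.10 for SSRP1, and 8.39 and 5.62 for SPT16. AT1G06263 to AT1G06283 inside AT1G29465 had no summit in any list and was named after its values were seen.

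Few snoRNA genes of the table carry a snoRNA name, and the loci of these were in 0 to 6 lists. The locus of SNOR77 was in 6 lists, with SSRP1 at 9.90 and 8.40, SPT16 at 8.09 and 7.97, and SPT5 at 2.52 and 2.72. That of SNOR30 was also in 6, with SPT5 at 2.28 over S2P and 6.12 over S5P. SNOR111 and SNOR95 lay in loci of 5 lists, the first with SPT5 over S2P at 2.997 and the second with SPT5 over S5P at 5.45. The U3 genes U3B and U3D, each of which overlaps a protein-coding gene in part, had no summit within 250 bp in any list. The same held for the U60 genes, U60.1F inside FIB1 and U60.2F inside FIB2, the fibrillarin genes themselves. No gene of the table is named U14.

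A smaller share of single snoRNA genes than of clusters was marked in the SPT5 and FACT lists. Any list marked 29 of 71 single genes, 40.8% (29.3 to 53.2), and 54 of 71 clusters, 76.1% (64.5 to 85.4), and these intervals do not overlap. Clusters span more bases, and per kb of window there were 2.42 summits at single genes and 3.62 in clusters; the part of length in the difference was not tested. Gene by gene, 40.8% of single genes and 69.0% of the 216 clustered genes were marked, where clustered genes can share a summit. This held outside coding genes, with 43.8% of 32 single and 75.0% of 160 clustered genes. At loci inside coding genes it did not, with 40.5% of 37 single and 28.1% of 32 clustered genes. Summits per kb there were 2.24 at single genes and 2.18 in clusters. Loci in 4 or more lists numbered 15 among single genes and 41 among clusters. By size, 22 of 27 loci with 2 genes, 16 of 23 with 3, 10 of 14 with 4 and 6 of 7 with 5 or 6 were marked.

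Each SPT5 and FACT list had this direction, and ELF7 over S2P did not. SPT5 over S2P stood at 6 single genes, 8.45% (3.16 to 17.5), and 22 clusters, 31.0% (20.5 to 43.1). SPT5 over S5P stood at 9 single genes, 12.7%, and 25 clusters, 35.2%. SSRP1 stood at 28.2% of single genes and 63.4% of clusters over S2P, and at 26.8% and 66.2% over S5P. SPT16 stood at 28.2% and 63.4% over S2P, and at 29.6% and 63.4% over S5P. ELF7 over S2P stood at 8 single genes, 11.3% (4.99 to 21.0), and 5 clusters, 7.04% (2.33 to 15.7), with overlapping intervals.

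**Figure D3:**
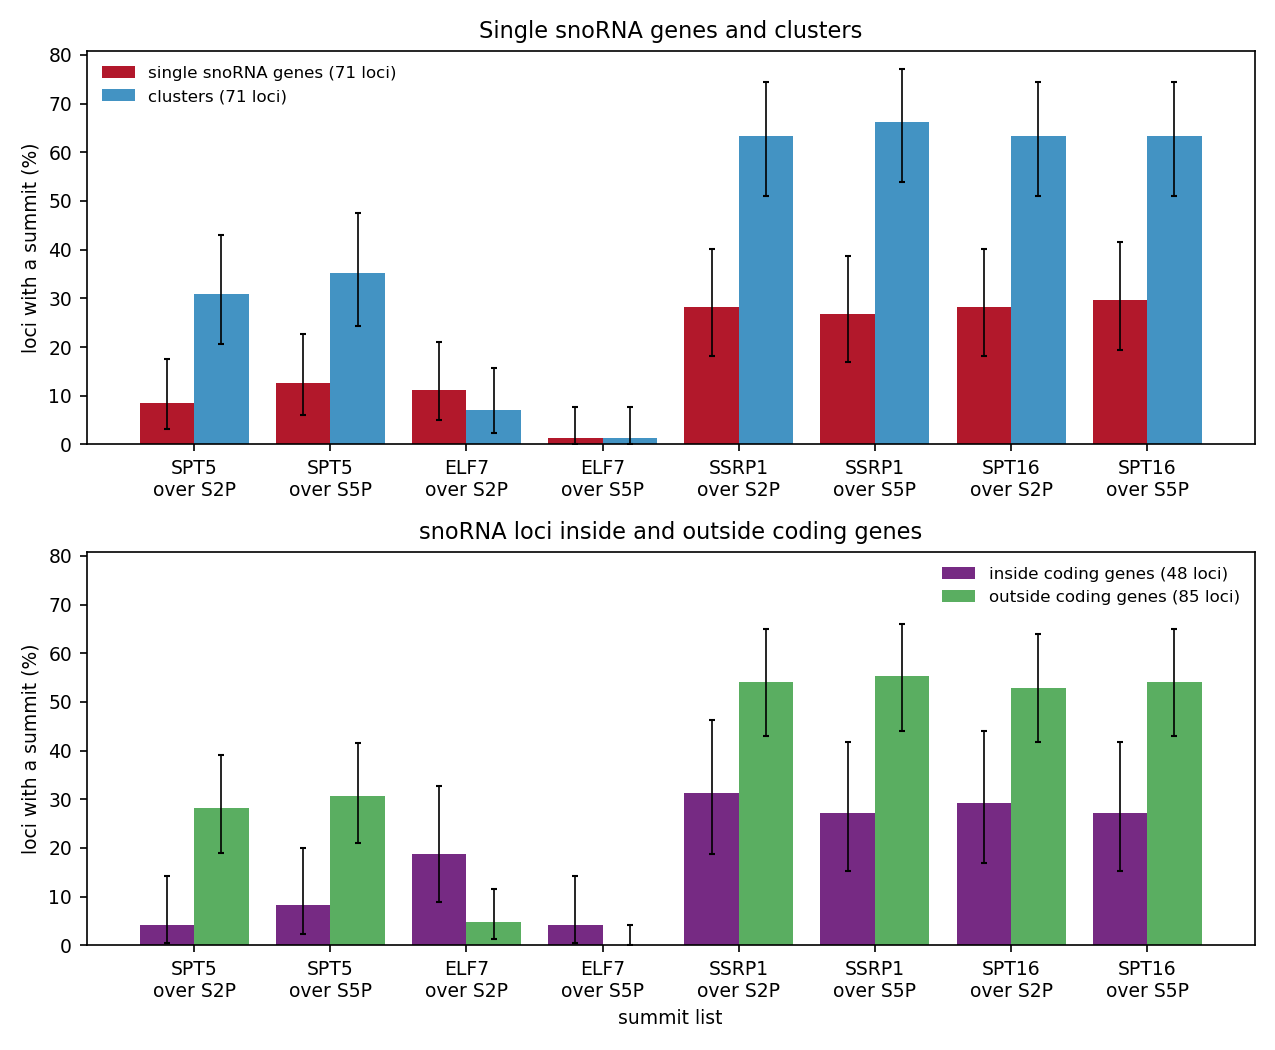
Share of snoRNA loci with a summit (percent, vertical axis) in each list (horizontal axis), for single genes and clusters (upper panel, 71 loci each) and for loci inside and outside protein-coding genes (lower panel, 48 and 85 loci); error bars are exact 95% intervals. Single genes and loci inside coding genes lie lower in every SPT5 and FACT list, whereas for ELF7 over S2P they stand at 11.3% against 7.04% and 18.8% against 4.71%. Of all 2687 ELF7 summits over S2P, 39 lie outside coding genes.

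Position relative to protein-coding genes split the loci in a similar way. A locus was taken as inside when every snoRNA gene of it lay within the span of a protein-coding gene, as outside when none overlapped one, and as mixed otherwise. The gene table has neither exons nor strand, so whether a snoRNA is intronic, or on the same strand as its host, was not analysed here. Members stood at 20 of 48 loci inside, 41.7% (27.6 to 56.8), at 56 of 85 outside, 65.9% (54.8 to 75.8), and at 7 of 9 mixed loci, and the intervals of loci inside and outside overlap slightly. SPT5 over S2P marked 2 loci inside, 4.17% (0.509 to 14.3), and 24 outside, 28.2% (19.0 to 39.0). SPT5 over S5P marked 4 inside, 8.33%, and 26 outside, 30.6%. The FACT lists marked 27.1% to 31.3% of loci inside and 52.9% to 55.3% outside. ELF7 over S2P ran the other way, with 9 loci inside, 18.8% (8.95 to 32.6), and 4 outside, 4.71% (1.30 to 11.6). Of all 2687 summits of that list, only 39 lay outside protein-coding genes, so this direction is not particular to snoRNA loci. Whether snoRNA loci differ from the whole list in this was not tested.

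The 2 divisions are linked, since 37 of the 48 loci inside coding genes are single genes. Among single genes alone, 15 of 37 inside, 40.5% (24.8 to 57.9), and 14 of 32 outside, 43.8% (26.4 to 62.3), were marked, with largely shared intervals. Among clusters, 5 of 11 inside, 45.5% (16.7 to 76.6), and 42 of 53 outside, 79.2% (65.9 to 89.2), were marked. SPT5 over S2P marked 0 of the 11 clusters inside coding genes (0 to 28.5%) and 20 of the 53 outside, 37.7% (24.8 to 52.1). ELF7 over S2P, whose whole list lies mostly in coding genes, kept its direction among single genes. It marked 7 of 37 inside, 18.9% (7.96 to 35.2), and 1 of 32 outside, 3.13% (0.0791 to 16.2).

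Members at loci outside coding genes mostly lay away from those genes, which the definition of the class partly fixes. The share of window bases at such distances was not taken, so the values below have no base beside them. Of the 249 members at loci outside, 6 lay within a coding gene and 230, or 92.4%, lay more than 250 bp from one, with a median distance of 625 bp. Another noncoding gene overlapped 33 of the 85 loci outside, of which 22 were marked, and 34 of the 52 without such an overlap were marked as well.

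A larger share of the protein-coding genes that hold a snoRNA gene than of other protein-coding genes was marked. A summit lay inside 36 of 56 such hosts, 64.3% (50.4 to 76.6), against 26.5% of other protein-coding genes. For SPT5 over S2P the shares were 8.93% of hosts (2.96 to 19.6) and 0.822% of the others, and for ELF7 over S2P 25.0% (14.4 to 38.4) and 8.12%. Of the 153 summits inside hosts, 95, or 62.1%, lay within 250 bp of the snoRNA gene, in windows that made up 26.9% of host bases. The 9 hosts with an ELF7 member over S2P included RPL34, UBQ1, which encodes ubiquitin joined to a ribosomal protein, the translation initiation factor genes EIF4A1 and eIFiso4G1, and ACHT5, a thioredoxin gene. The others were AT3G09440, AT1G27400, AT4G17390 and AT1G26880. In UBQ1 the members were SPT5 at 2.78 and ELF7 at 2.58 over S2P, while the gene's strongest SSRP1 and SPT16 summits, 13.6 and 16.7 over S2P, lay outside the snoRNA window.

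In the SPT5 and FACT lists the summits were denser inside snoRNA genes than beside them, while the ELF7 lists had too few members to show a difference. All lists together had 5.06 summits per kb inside snoRNA genes, 2.44 per kb at 1 to 250 bp, 1.29 at 251 to 500 bp and 0.652 at 501 to 750 bp, against 0.254 per kb of whole chromosomes. Just inside the limit, at 201 to 250 bp, lay 26 summits with a median score of 5.35, and just outside, at 251 to 300 bp, 25 with a median of 5.44. ELF7 over S2P had 0.0967 per kb inside the genes and 0.121 at 1 to 250 bp, from 3 and 10 summits. ELF7 over S5P had 0 and 0.0243, from 0 and 2 summits. Bases inside a snoRNA gene made up 27.3% of the windows. The share of members inside a snoRNA gene was 46.7% for SPT5 over S2P, 37.1% for SPT5 over S5P, 23.1% for ELF7 over S2P and between 41.7% and 49.3% in the FACT lists.

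The S2P and S5P lists differed in how far the summits extended beyond the loci. At the 85 loci outside coding genes, SPT5 over S2P had 0.690 summits per kb between the outermost bases of a locus, 0.165 at 1 to 250 bp beyond them and 0.0941 at 251 to 500 bp. SPT5 over S5P had 0.436, 0.353 and 0.494 per kb over the same stretches, so that 21 loci had a summit at 251 to 500 bp over S5P and 4 over S2P. Of those 21 summits, 1 lay in a protein-coding gene. SPT16 had a summit at 251 to 500 bp beside 4 loci over S2P and 18 over S5P, and SSRP1 beside 4 over S2P and 13 over S5P. Inside the loci the forms were close for FACT, with 1.45 over S2P and 1.38 over S5P per kb for SSRP1, and 1.162 and 1.053 for SPT16. The SSRP1 list over S5P is the shorter one, with 4199 summits against 5451 over S2P, whereas the SPT5 and SPT16 lists are longer over S5P. Outside protein-coding genes, each of these factors had more summits over S5P than over S2P. The counts were 1354 against 66 for SPT5, 367 against 214 for SSRP1 and 1358 against 392 for SPT16. Whether the summits beside the loci exceed this general difference was not tested. Without strand, a summit beside a locus could not be placed before or after it in the direction of transcription.

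**Figure D4:**
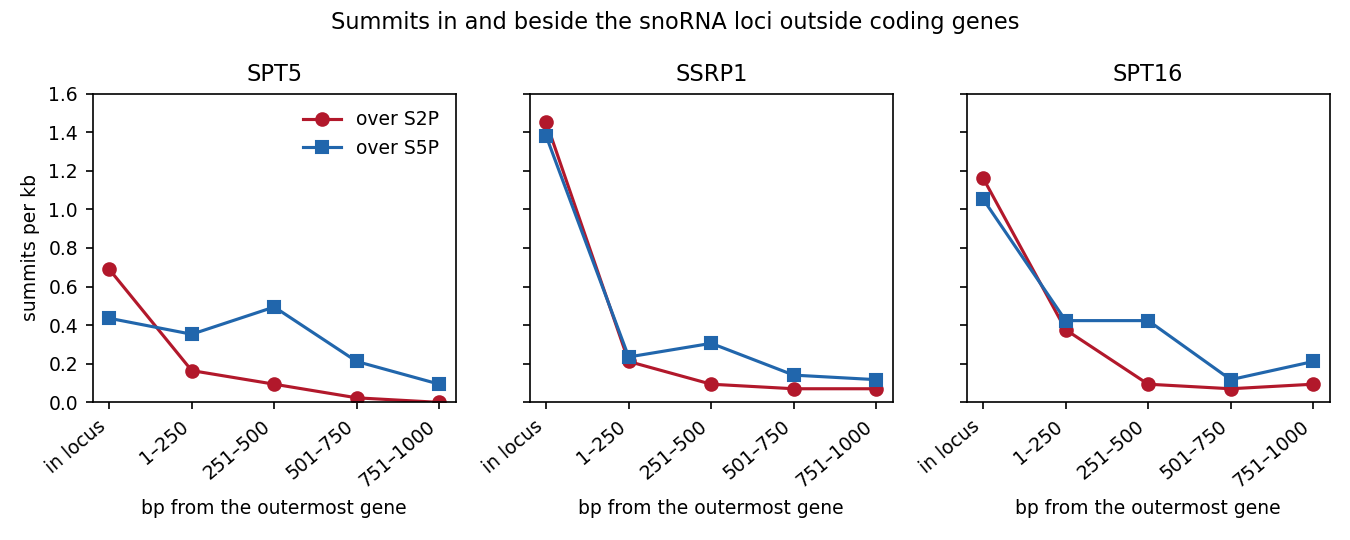
Summits per kb (vertical axis) inside the 85 snoRNA loci outside coding genes and in 4 bins of distance in bp from the outermost snoRNA gene on either side (horizontal axis), for SPT5, SSRP1 and SPT16 over S2P (circles) and S5P (squares). At 251 to 500 bp the S5P lists stand at 0.494, 0.306 and 0.424 per kb, while the S2P lists all stand at 0.0941.

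At clusters, a larger share of SPT5 members lay beyond the outermost genes over S5P than over S2P. Among SPT5 members at clusters, 14 of 24 over S2P lay inside a snoRNA gene, 7 between genes and 3 beyond the outermost genes. Over S5P, 11 of 26 lay inside a gene, 4 between genes and 11 beyond. These stretches differ in length, with 22.731 kb inside snoRNA genes, 11.776 kb between genes and 35.5 kb beyond the outermost genes. The stretch beyond is thus the longest, and SPT5 summits over S5P were not denser there than inside the genes. For SPT16 the summits beyond the outermost genes were 12 of 49 over S2P and 14 of 47 over S5P, and for SSRP1 9 of 50 and 11 of 50, a difference of 2 summits for each subunit. Of the 28 loci with SPT5 over S2P, 14 had SPT5 over S5P within 250 bp of a snoRNA gene, 20 within 500 bp and 24 within 1000 bp, which is 85.7% (67.3 to 96.0). Of the 34 loci with SPT5 over S5P, 14 had SPT5 over S2P within 250 bp, and the number was still 14 within 1000 bp. The S5P list of SPT5 holds 2916 summits and its S2P list 298, so a wider search meets unlike numbers of summits. The part of list length in this difference was not tested.

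Summits of 1 factor over both forms often fell on the same base, and summits of different factors did not. Both lists of a factor are read as sharing its libraries, so a common base within a factor is not independent agreement. Taking the strongest summit per locus and list, the gap between S2P and S5P had a median of 0 bp for SPT5 (8 of 14 loci at the same base), SSRP1 (42 of 59) and SPT16 (42 of 58). SSRP1 and SPT16, which form 1 complex, were both present over S2P at 60 loci, 92.3% of the loci of either, with a median gap of 78 bp and no locus at the same base. SPT5 and SSRP1 over S2P shared 25 loci, 89.3% of the SPT5 and 38.5% of the SSRP1 loci, with a median gap of 81 bp. Over S5P, SPT5 and SSRP1 shared 30 loci with a median gap of 151.5 bp, and SPT5 and SPT16 28 loci with a median gap of 93 bp. ELF7 and SSRP1 over S2P shared 11 loci with a median gap of 246 bp. The overlap of the lists at other genes was not taken, so the shares of common loci have no base beside them.

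The loci with SPT5 but no FACT were AT1G20015, the pair AT2G07605 and AT2G07615, and AT3G08275 in UBQ1. AT1G20015 scored 3.97 over S2P at position 6941546 and 3.90 over S5P at 6941547 on chromosome 1. The pair on chromosome 2 scored 3.96 and 3.91 at position 9560474 in both lists. These loci, with no FACT summit within 250 bp, were named after their values were seen.

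The genes for proteins of snoRNA particles, taken with the nucleolin genes and the assembly factor gene NAF1, were marked about as often as protein-coding genes in general. Of 17 such genes, 6 had a summit within 250 bp in any list, 35.3% (14.2 to 61.7), against 33.7% of protein-coding genes. NUC-L1, which encodes nucleolin, was in 7 lists, with scores over S2P of 2.45 for SPT5, 10.7 for ELF7, 9.41 for SSRP1 and 9.44 for SPT16. FIB1 had SSRP1 at 3.81 and SPT16 at 3.90 over S2P, both outside the window of its snoRNA, and FIB2 had no summit. NOP56 had SPT5 over S5P at 7.04, and the dyskerin gene NAP57, NOP10 and NAF1 had no summit.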

How the data were processed

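The files were 8 summit lists made from 25 samples. The submitters' processing notes name MACS3, Bowtie2, deepTools, Trimmomatic 0.39 and SAMtools 1.16.1, and the build TAIR10. The MACS3 settings and control, the pooling of libraries and the remaining versions were not given in the sources read. Scores are the −log10 q-values that the authors deposited. Beyond naming loci, for which the highest scores over all lists were taken, they were compared within a list.

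Summits (positions counted from 1) were matched to RefSeq genes (table of TAIR10.1, whose coordinates are not printed) with Python 3.11.15, pandas 2.3.3 and scipy 1.17.1. The window was 250 bp and loci were joined at 1000 bp. Window and joining rules were checked on made-up genes with known answers. A list or factor was compared between classes by shares with 95% exact intervals and no test. Named were loci in 4 or more lists, the highest score per list, the 10 highest scores, the 5 largest clusters, and U3, U14, U60 and fibrillarin genes. The list of 17 genes for snoRNA particle proteins, nucleolin and NAF1 was fixed by role. Members, lists and this rule were chosen with earlier results of these data known. Windows of 0, 100 and 500 bp, scores of at least 5, other joins and another rule for hosts were tried. Promoter motifs, exons and strand were not analysed here.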

Additional observations from a re-analysis of the deposited data

How the results depend on the processing

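The comparisons between classes were recomputed over all lists at once, not list by list, and loci built from summits give none because every such locus is marked. In these the direction was the same under each alternative run. Single genes were marked 35.2 percentage points less often than clusters (difference −35.2), with a range of −42.3 (window of 0 bp) to −33.2 (joined at 500 bp). Loci inside coding genes differed from those outside by −24.2 points, by −28.6 with a window of 0 bp, −19.2 with 100 bp, −29.4 at scores of at least 5 and −18.5 where any overlap counted as inside. The share of snoRNA genes exceeded that of tRNA genes by 53.4 points, and by 23.8, 42.6 and 55.6 with windows of 0, 100 and 500 bp and 42.8 at scores of at least 5. It exceeded that of snRNA genes by 58.4 points, and by 23.2, 44.6, 62.0 and 46.0 under those settings.

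Counts followed the window. With 0 bp, 70 snoRNA genes, 13 single loci, 10 loci inside coding genes, 4 tRNA and 1 snRNA genes were marked, and the lists marked 14 (SPT5 over S2P), 13 (SPT5 over S5P), 3 and 0 (ELF7), 30 and 30 (SSRP1), and 34 and 33 (SPT16) snoRNA genes. With 100 bp the list counts were 37 and 27, 11 and 1, 86 and 80, and 79 and 71, with 28 tRNA genes. With 500 bp, SPT5 over S5P marked 110 snoRNA genes, with 86 tRNA and 6 snRNA genes. At scores of at least 5, SPT5 marked 11 over S2P and 14 over S5P, ELF7 2 and 1, and SSRP1 over S5P 83, with 35 tRNA genes and 13 loci inside coding genes. The 52 other values, those for joins at 500 and 2000 bp, for loci built from summits and for any overlap counted as inside among them, stayed within 1.5 times the count or within the interval of the share. No paired analysis was possible because the lists hold no column per library. Depth is unknown, so that an unmarked locus was not detected in these lists, but was not shown to lack a factor.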

Other observations

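Of the 15 single snoRNA genes outside coding genes that are 84 to 88 bp long, 3 had a summit, 20.0% (4.33 to 48.1), against 11 of the 17 of other lengths, 64.7% (38.3 to 85.8). This split was chosen after the values were seen and was not tested.

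Of the 54 tRNA genes with a summit, 3 lay within 500 bp of a snoRNA gene, 5.56%, as did 12 of all 625 tRNA genes, 1.92%.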
